A study of Mus musculus with 2 samples.

Results

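The 59 genes described here code for proteins that make DNA precursors, copy DNA, separate chromosomes or time these steps in the cell cycle. They were taken from a fixed list of gene symbols, together with every probe set on the array whose single annotated symbol is on that list. A probe set is a group of short array probes read as 1 signal. Of the 59, 58 had such a probe set, 139 probe sets in all out of 45037 that are not controls, and Ccnb1, which codes for cyclin B1, had none. A gene counted as measured when its probe set reached the signal floor, a linear signal of 145, on at least 1 array. This held for 45 of the 58 genes (77.6%), against 11089 of all 18193 annotated genes.

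RNA was taken from washed platelets of C57BL/6 mice and hybridised to Affymetrix Mouse Genome 430 2.0 arrays, with 1 array for each of 2 genotypes and 6 mice named per genotype. In Smad4 −/− mice the loxP-flanked Smad4 gene is removed by a Cre recombinase under the PF4 promoter, which acts in megakaryocytes and platelets. The Smad4 f/f mice carry the loxP-flanked gene, and the submitters call them wild-type controls. The sources used here do not give whether the 6 mice were pooled, their age and sex, or whether the controls carry Cre. The comparison asks which platelet transcripts differ when Smad4, the common partner of the receptor-activated SMAD proteins, is lost. With 1 array per genotype there are no replicates and no test was possible, so each value below describes 2 arrays. A 2-fold difference serves as a rule of size only.

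Platelets have no nucleus, and much of the mRNA they hold was made in the megakaryocyte. Megakaryocytes copy their genome repeatedly without dividing, a process called endomitosis, and so use the replication enzymes, kinetochore proteins and cyclins of a dividing cell. D-type cyclins with Cdk4 and Cdk6 phosphorylate the retinoblastoma protein, which frees E2F factors to switch on the genes of DNA replication. CDK inhibitors hold these kinases back. In a bulk sample, fewer cells of a type and less RNA per cell cannot be told apart.

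In Smad4 −/−, 3 of the 45 measured genes were higher by 2-fold or more and 0 were lower by as much, while among all 11089 measured genes 3.42% were that much higher and 3.58% that much lower. The 3 were Dut, which clears dUTP from the nucleotide pool (8.45-fold), Rb1, which codes for the retinoblastoma protein (2.50-fold), and Zwint, a kinetochore protein (2.25-fold). At 1.5-fold, 12 were higher, or 26.7%, against 11.8% of all measured genes, and 4 were lower, or 8.89%, against 13.3%. At 3-fold, 1 was higher, Dut, against 0.514% of all measured genes, and 0 were lower, against 0.415%. The log2 ratio was above 0 in 29 of 45 (64.4%), against 48.3% of all measured genes, and its median was 0.19, against −0.02. The genes were chosen with earlier results of these data known, so these shares are no independent evidence of a shift of the pathway. Each ratio divides Smad4 −/− by Smad4 f/f, after signals under the floor were raised to it. A ratio with 1 side below the floor is a bound, given as "at least". The bound is on the ratio of the 2 array signals and not on the true difference. Across 4252 genes of the array, the pooled SD of the floored log2 ratio among measured probe sets of 1 gene was 0.48. This yardstick compares different probe sets on the same 2 arrays. It holds no spread between animals or between repeat arrays.

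**Figure D1:**
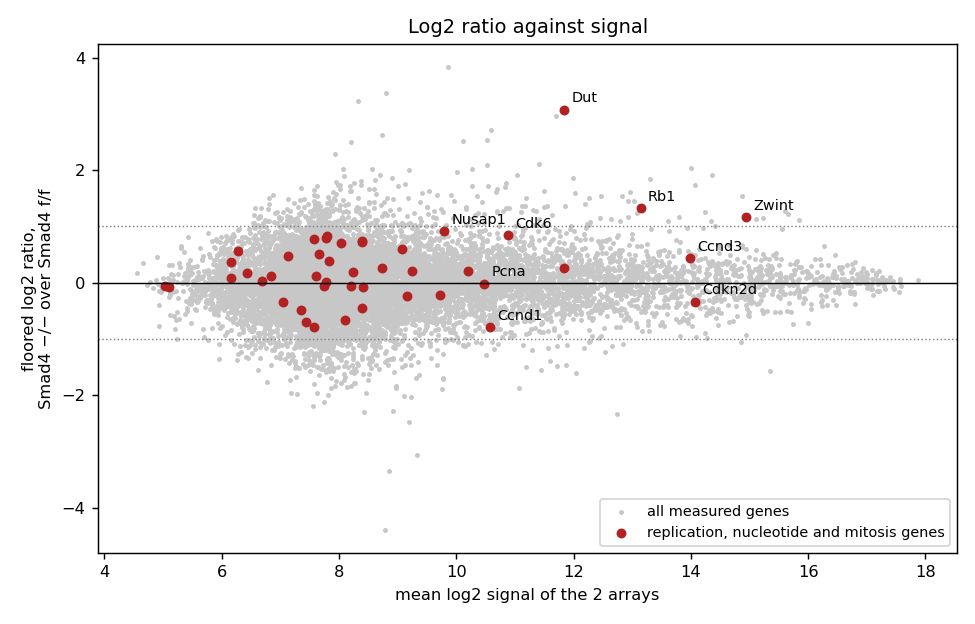
Floored log2 ratio (Smad4 −/− over Smad4 f/f) against the mean log2 signal of the 2 arrays. Grey points are all 11089 measured genes, red points the 45 measured replication, nucleotide and mitosis genes, and dotted lines mark 2-fold. Dut at 3.08, Rb1 at 1.32 and Zwint at 1.17 lie above the upper line, and no red point lies below the lower one.

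The arrays also differed in markers of other cells and in RNA quality. All 16 platelet markers with a probe set were above the floor on both arrays and within 2-fold, with Pf4 at 167889 in Smad4 −/− and 162822 in Smad4 f/f. Smad4 read 894 in Smad4 −/− and 949 in Smad4 f/f, with log2 ratios from −0.13 to −0.09 over its 3 probe sets. These signals were close to equal, so the arrays do not by themselves show a loss of Smad4 RNA. Where the 3 probe sets lie relative to the deleted part of the gene was not analysed here. Erythroid markers above the floor numbered 17, of which 7 were higher in Smad4 −/− by 2-fold or more and 0 lower. Their median log2 ratio was 0.24, with 11 above 0 and 6 below. The summed signal of the list was 35121 in Smad4 −/− against 16280.5 in Smad4 f/f, with none of the 21 markers listed at 0. Most of the difference between the sums comes from Fech (13904 in Smad4 −/− against 4551 in Smad4 f/f) and Bpgm (7635 in Smad4 −/− against 2881 in Smad4 f/f). The 6 markers below 0 were Hbb-b2 at −0.97, Tfrc at −0.61, Rhd at −0.49, the alpha-globin gene Hba-a2 at −0.38, Klf1 at −0.31 and Tspo2 at −0.09. For T and NK cell markers, 1 of 10 was at least 2-fold higher and 0 lower, and the sums were 18267 in Smad4 −/− and 8800.1 in Smad4 f/f. Most of that is Cd28 (12825 in Smad4 −/− against 4685 in Smad4 f/f), while Cd3d of the T cell receptor complex went the other way, with 181 in Smad4 −/− and 355.5 in Smad4 f/f, a log2 ratio of −0.98. Cd3e and Cd3g of the same complex were below the floor on both arrays. The stem and progenitor markers Kit and Cd34 were also below the floor on both, and 0 of 6 in that list passed 2-fold. The lists of B cell, neutrophil, monocyte and endothelial markers had 2 of 11, 0 of 7, 1 of 8 and 1 of 9 at least 2-fold higher and 0 lower. Among all measured genes, 3.42% were that much higher and 3.58% lower. The monocyte marker was Csf1r at 1.64, while its other measured probe sets had −0.48 and, as a bound, −0.32. The endothelial marker was Flt1, with a bound of 3.23 but −0.16 in another measured probe set. The Gapdh control probe sets, which report on RNA integrity, gave a 3′ to 5′ signal ratio of 2.61 for Smad4 −/− and 1.86 for Smad4 f/f, and those of beta-actin 1.27 for Smad4 −/− and 1.16 for Smad4 f/f. The part of these differences in the ratios of Dut, Zwint, Rb1 and the other genes was not tested.

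Many replication and mitosis genes are known to carry E2F sites near their start, so their promoter sequences were set beside the ratios. RefSeq windows of 250 bases before to 50 after a gene's start (GRCm38.p6) were at hand for 47 of the 59 genes. They were searched on both strands for the 4 E2F words TTTCCCGC, TTTCGCGC, TTTGCCGC and TTTGGCGC, and for CAGACA, which holds the AGAC core of the SMAD-binding element. A word is a match of letters and not a shown binding site. Dut and Zwint passed 2-fold and are shown for that reason. Mcm6 is shown as the promoter with the most E2F words, and Pola1 as the gene with the highest floored ratio among the measured genes that have one. With no floor, Mcm3, Cdk1, Lig1 and Cdk2 ranked above Pola1. Capitals mark E2F words and CAGACA, on either strand, and each sequence is written 5′ to 3′ on the strand of its gene.
Dut, chr2:125247265-125247564, plus strand: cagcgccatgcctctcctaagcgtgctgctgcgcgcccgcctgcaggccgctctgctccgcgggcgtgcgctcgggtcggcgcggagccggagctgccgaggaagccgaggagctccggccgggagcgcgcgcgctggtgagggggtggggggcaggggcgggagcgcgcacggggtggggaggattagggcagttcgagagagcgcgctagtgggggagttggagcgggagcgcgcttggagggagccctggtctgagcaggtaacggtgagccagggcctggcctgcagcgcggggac
Zwint, chr10:72654596-72654895, plus strand: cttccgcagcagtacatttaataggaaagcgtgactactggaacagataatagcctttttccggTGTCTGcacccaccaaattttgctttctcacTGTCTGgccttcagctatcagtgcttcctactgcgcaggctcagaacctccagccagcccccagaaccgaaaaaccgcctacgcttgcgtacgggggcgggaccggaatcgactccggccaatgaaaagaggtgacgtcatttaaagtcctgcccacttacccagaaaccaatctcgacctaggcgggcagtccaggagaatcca
Mcm6, chr1:128359656-128359955, minus strand: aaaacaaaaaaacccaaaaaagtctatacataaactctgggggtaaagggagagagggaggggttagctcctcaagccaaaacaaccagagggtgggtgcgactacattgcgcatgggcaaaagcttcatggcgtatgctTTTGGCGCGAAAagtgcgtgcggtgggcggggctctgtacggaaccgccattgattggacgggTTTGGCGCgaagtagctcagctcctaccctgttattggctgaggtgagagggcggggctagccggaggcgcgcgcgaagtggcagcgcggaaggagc
Pola1, chrX:93632106-93632405, minus strand: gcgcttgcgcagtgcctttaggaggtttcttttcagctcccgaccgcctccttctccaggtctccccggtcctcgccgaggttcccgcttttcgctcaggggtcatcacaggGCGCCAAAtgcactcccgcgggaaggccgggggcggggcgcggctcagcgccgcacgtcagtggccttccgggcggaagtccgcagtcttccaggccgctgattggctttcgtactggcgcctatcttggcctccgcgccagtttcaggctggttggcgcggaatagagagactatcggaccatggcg

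The Dut window holds none of these words. The Zwint window holds CAGACA at 2 places, both read on the opposite strand and starting 186 and 155 bases before the gene's start, and no E2F word. Mcm6 has 3 E2F words, of which the first pair overlaps on opposite strands 110 and 106 bases before the start, and the other stands 47 bases before it. Over the 55 windows of the 47 genes, 12 (21.8%) held an E2F word, against 2.26% of all 32851 windows of the same length. CAGACA was in 4 of the 55 (7.27%), against 21.0% of all windows. CCAAT, the box bound by NF-Y, was in 34 of them (61.8%), against 37.4% of all. TTTGAA, the form searched of the cell cycle homology region of mitotic genes, was in 16 (29.1%), against 17.9%. The 10 measured genes with an E2F word had floored log2 ratios from −0.49 to 0.74, within 2-fold, and a median of 0.30. The 28 with a window and no such word had a median of 0.16. Among the 10, Mcm3, Lig1, Cdk1, Cdk2 and Rbl1 lay below the floor on 1 array. Their ratios are bounds, so this range and median depend on the floor. With no floor, Mcm3, Lig1, Cdk1 and Cdk2 passed 2-fold. Rb1, Ccnd1 and Ccnd2 are among the genes with no window.

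Nucleotide supply was led by Dut. Its dUTPase turns dUTP into dUMP, which keeps uracil out of DNA and feeds the synthesis of thymidine nucleotides. The probe set taken for the gene read 10669.8 in Smad4 −/− and 1263 in Smad4 f/f, 8.45-fold higher. A weaker probe set read 801 in Smad4 −/− against 259.7 in Smad4 f/f, 3.08-fold higher. Both therefore passed 2-fold in the same direction, with log2 ratios of 3.08 and 1.62 that lie further apart than the yardstick of 0.48.

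The rest of nucleotide supply did not follow Dut in size. Rrm1, the large subunit of ribonucleotide reductase, which makes deoxynucleotides, read 465 in Smad4 −/− and 386 in Smad4 f/f, a log2 ratio of 0.27. Its other measured probe set went the other way, with 75.8 in Smad4 −/− against 161 in Smad4 f/f. Tyms, the thymidylate synthase, and Tk1, the thymidine kinase of S phase, stayed below the floor on both arrays in all their probe sets. Rrm2, the small subunit of the reductase, reached the floor only in Smad4 f/f and only in a probe set of the type open to cross-hybridisation (138 in Smad4 −/− against 180.0 in Smad4 f/f), so it did not count as measured.

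Origin licensing and the replicative helicase had 8 of 12 genes measured, 0 of them past 2-fold, with 6 ratios above 0 and a median of 0.47. That median lies midway between the ratio of Mcm6 and the bound of Mcm3, so it depends on the floor. Mcm2 to Mcm7 form the ring of the helicase that opens DNA at origins. Mcm4 read 432 in Smad4 −/− and 261 in Smad4 f/f, a log2 ratio of 0.73, with 0.37 in its other probe set. Mcm2 went the other way, with 220 in Smad4 −/− and 347 in Smad4 f/f, a log2 ratio of −0.66. The Mcm2 value rests on 1 probe set, ending in _s_at, and its other probe set was below the floor on both arrays.

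The other helicase subunits gave smaller or less certain values. Mcm7 read 525 in Smad4 −/− and 619 in Smad4 f/f, a log2 ratio of −0.24, and its 4 measured probe sets split evenly, from −0.51 to 0.33. Without probe sets ending in _s_at or _x_at, Mcm2 had no value and Mcm7 had a log2 ratio of 0.33 from a probe set below the floor in Smad4 f/f, so a lower direction of any ring subunit rests on such probe sets. Mcm6 read 260.3 in Smad4 −/− against 199 in Smad4 f/f, a log2 ratio of 0.39, and its other measured probe set had −0.48. Mcm3 read 214 in Smad4 −/− and lay below the floor in Smad4 f/f, at least 1.47-fold higher. Mcm3 therefore appears above the floor on 1 array only, and its 4 other probe sets were below it on both. Mcm5 reached the floor only in a probe set open to cross-hybridisation (329 in Smad4 −/− against 273 in Smad4 f/f), with its other probe sets below.

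Among the loading and firing factors, Gmnn and Cdc45 had the larger ratios. Gmnn, which codes for geminin, the inhibitor of Cdt1, read 249 in Smad4 −/− and 145 in Smad4 f/f, a log2 ratio of 0.77 that starts at the floor. Cdc45, which joins the ring and the GINS complex into the active helicase, read 334 in Smad4 −/− against 206 in Smad4 f/f, a log2 ratio of 0.70. Cdt1, which loads the ring on DNA, read 653 in Smad4 −/− and 567 in Smad4 f/f. Its log2 ratio of 0.20 stood beside a bound of −0.91 in another probe set (139, below the floor, in Smad4 −/− against 274 in Smad4 f/f). The direction of Cdt1 thus rests on the probe set chosen. Gins1 and Gins2, of the GINS complex, and Cdc6, the loading ATPase, were below the floor on both arrays.

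All 6 genes of DNA synthesis and joining were measured, 0 past 2-fold, and 3 had ratios above 0. Pcna, the sliding clamp that holds polymerases on DNA, was close to equal, with 1413 in Smad4 −/− and 1429.7 in Smad4 f/f, a log2 ratio of −0.02. Pola1 and Prim1 belong to the same primase complex, which lays down the primers of replication, and went opposite ways. Pola1, its polymerase subunit, read 435 in Smad4 −/− and 261 in Smad4 f/f, a log2 ratio of 0.74. Prim1, the primase subunit, fell just below the floor, with 144.5 in Smad4 −/− against 249.9 in Smad4 f/f, so it was at least 1.72-fold lower.

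Top2a, the topoisomerase that untangles sister chromosomes, read 243 in Smad4 −/− and 170.3 in Smad4 f/f, a log2 ratio of 0.51. Lig1, which joins Okazaki fragments, reached 164 in Smad4 −/− and lay below the floor in Smad4 f/f at 45.3. Fen1, the nuclease that trims these fragments, read 7.76 in Smad4 −/− and 153 in Smad4 f/f. The Fen1 value in Smad4 f/f lies just above the floor, so the floored log2 ratio is only −0.08, or at least 1.05-fold lower. A Fen1 probe set open to cross-hybridisation read higher on both arrays and went the same way, 595 in Smad4 −/− against 1098 in Smad4 f/f, a log2 ratio of −0.88.

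**Figure D2:**
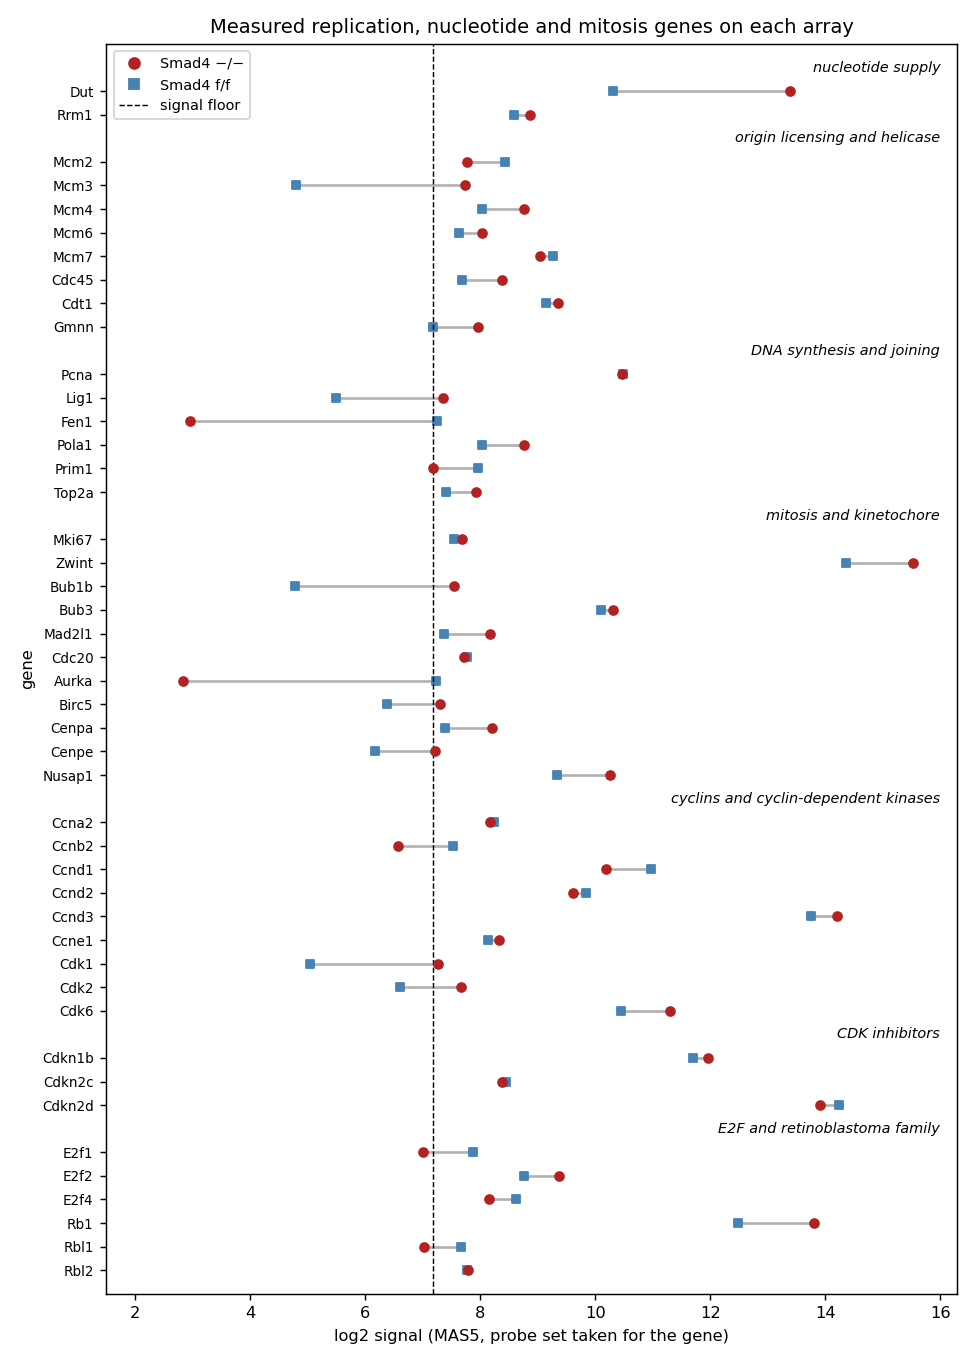
Log2 signal of the 45 measured genes, grouped by role, with the floor as a dashed line. Red circles are the Smad4 −/− array and blue squares the Smad4 f/f array. Dut, Zwint and Rb1 lie to the right of the floor on both arrays with Smad4 −/− higher, whereas in 13 genes 1 of the arrays lies below the floor.

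Mitosis and kinetochore genes had 11 of 15 measured, 1 at least 2-fold higher and 0 lower, with 9 ratios above 0 and a median of 0.20. Of the 11, 3 were above the floor in Smad4 −/− only and 1 in Smad4 f/f only, so this median depends on the floor. Zwint, which sits at the kinetochore and helps to recruit the motor and checkpoint proteins that watch chromosome attachment, read 47284 in Smad4 −/− and 21007 in Smad4 f/f, 2.25-fold higher. All 6 of its measured probe sets were higher in Smad4 −/−, with log2 ratios from 0.27 to 1.17. Only the probe set taken for the gene passed 2-fold. The next in ratio, at 0.99, read 3878 in Smad4 −/− against 1954 in Smad4 f/f.

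Nusap1, which bundles spindle microtubules, came nearest to 2-fold after Zwint in this group, with 1219 in Smad4 −/− and 646 in Smad4 f/f, a log2 ratio of 0.92. Its other probe set touched the floor only in Smad4 f/f (3.91 in Smad4 −/− against 145 in Smad4 f/f) and had a floored log2 ratio of 0.00. Cenpa, the histone H3 variant that marks centromeres, read 296 in Smad4 −/− and 167 in Smad4 f/f, a log2 ratio of 0.83. Mad2l1, a protein of the spindle checkpoint, read 288 in Smad4 −/− against 165 in Smad4 f/f, a log2 ratio of 0.80. These 3 genes stayed within 2-fold, and all were higher in Smad4 −/−.

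The partners of Mad2l1 in the spindle checkpoint had smaller ratios. Bub3 read 1266 in Smad4 −/− and 1099 in Smad4 f/f, a log2 ratio of 0.20, with 0.62 in its other measured probe set. Bub1b, which codes for BubR1, reached the floor on 1 array only, with 187 in Smad4 −/− against 27.3 in Smad4 f/f, at least 1.29-fold higher. Cdc20, the activator of the anaphase-promoting complex that the checkpoint restrains, read 211 in Smad4 −/− against 219 in Smad4 f/f, a log2 ratio of −0.05. Bub1, a checkpoint kinase, was below the floor on both arrays.

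Markers of cycling cells were close to the floor. Mki67, the proliferation antigen Ki-67, read 205 in Smad4 −/− and 188 in Smad4 f/f, a log2 ratio of 0.13. Birc5, which codes for survivin of the chromosomal passenger complex, read 157 in Smad4 −/− and lay below the floor in Smad4 f/f at 83.1. Cenpe, a kinetochore motor, likewise reached it on that array alone, with 148 in Smad4 −/− against 71.8 in Smad4 f/f. Aurka, a kinase of the spindle poles, did so only in Smad4 f/f, with 7.13 in Smad4 −/− against 151 in Smad4 f/f. The floored log2 ratios of these last 3 were 0.12, 0.03 and −0.05, since the array above the floor was barely so. Plk1 and Aurkb, mitotic kinases, and Tpx2, the activator of Aurka, were below the floor on both arrays.

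Among the G1 cyclins and their kinases, Ccnd1 and Cdk6 went opposite ways. Ccnd1, cyclin D1, read 1162 in Smad4 −/− and 2000.3 in Smad4 f/f, a log2 ratio of −0.78, and its 3 measured probe sets ran from −0.89 to −0.68. Cdk6, a kinase that D-type cyclins activate, read 2532 in Smad4 −/− against 1404 in Smad4 f/f, a log2 ratio of 0.85. Its 3 measured probe sets ran from 0.75 to 0.85, where 0.75 is a bound with Smad4 f/f below the floor. Neither gene passed 2-fold, and in both every measured probe set kept 1 direction.

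Ccnd3, cyclin D3, read 18785 in Smad4 −/− and 13888 in Smad4 f/f, a log2 ratio of 0.44. A second probe set of Ccnd3 gave 0.62 and a weaker one −0.28. Ccnd2, cyclin D2, read 781 in Smad4 −/− and 914 in Smad4 f/f, a log2 ratio of −0.23, and 4 of its 6 measured probe sets were higher in Smad4 −/−, up to 0.64. The D-type cyclins thus had no common direction on these arrays. Cdk4, the other partner of D-type cyclins, reached the floor only in a probe set open to cross-hybridisation (406 in Smad4 −/− against 185 in Smad4 f/f), with its other probe sets below, and was not counted as measured.

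Cyclins and kinases of S phase and mitosis were nearer the floor. Ccne1, cyclin E1, read 321 in Smad4 −/− and 282 in Smad4 f/f, a log2 ratio of 0.19, but another probe set had −0.86 with Smad4 −/− below the floor. Ccna2, cyclin A2, read 289.8 in Smad4 −/− against 303 in Smad4 f/f, a log2 ratio of −0.06. Its other probe set had a bound of −0.53, with Smad4 −/− below the floor. Ccnb2, cyclin B2, was below the floor with 94.8 in Smad4 −/− against 184 in Smad4 f/f, at least 1.26-fold lower. Ccne2, cyclin E2, was below the floor on both arrays. The measured cyclins other than Ccnd3 and Ccne1 therefore had ratios below 0 in the probe set taken for the gene, but Ccna2 turned to 0.03 with each array centred on its median and Ccnd2 to 0.15 with the mean of its probe sets.

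Both kinases that these cyclins bind were above the floor in Smad4 −/− alone. Cdk2, the S phase kinase, read 203 in Smad4 −/− and 97.1 in Smad4 f/f, at least 1.40-fold higher. Cdk1, the kinase of mitotic entry, read 154 in Smad4 −/− against 33.1 in Smad4 f/f, at least 1.06-fold higher. Over the 9 measured genes of 12 cyclins and kinases, 0 passed 2-fold, 5 lay above a log2 ratio of 0, and their median was 0.09. That median is the bound of Cdk1, so it depends on the floor.

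CDK inhibitors stayed within 2-fold in all 3 cases. Cdkn2d, which codes for p19 of the INK4 family that blocks Cdk4 and Cdk6, read 15344 in Smad4 −/− and 19339.5 in Smad4 f/f, a log2 ratio of −0.33 from 1 probe set. Cdkn1b, which codes for p27, an inhibitor of cyclin E with Cdk2, read 4009.5 in Smad4 −/− against 3349 in Smad4 f/f, a log2 ratio of 0.26, with 0.08 in its other measured probe set. Cdkn2c, the p18 gene of the INK4 family, read 333 in Smad4 −/− against 349 in Smad4 f/f, a log2 ratio of −0.07. The inhibitors had no common direction.

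The retinoblastoma and E2F families held the third gene past 2-fold. Rb1 codes for the pocket protein that restrains E2F factors until it is phosphorylated. It read 14316 in Smad4 −/− and 5723 in Smad4 f/f, 2.50-fold higher by its only measured probe set. The other Rb1 probe set was below the floor on both arrays, so no second probe set bears on the value. Its relatives Rbl1 and Rbl2, which code for p107 and p130, did not share that size of difference. Rbl1 lay below the floor at 129.8, against 204 in Smad4 f/f, at least 1.41-fold lower, and its other measured probe set went the same way. Rbl2 read 222 in Smad4 −/− and 219 in Smad4 f/f, a log2 ratio of 0.02.

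Among the E2F factors, E2f2 was higher and E2f1 and E2f4 lower in Smad4 −/−, all within 2-fold. E2f2, an activator E2F, read 661 in Smad4 −/− and 436 in Smad4 f/f, a log2 ratio of 0.60, with 0.53 in its other probe set. E2f1, also an activator, fell below the floor with 129 in Smad4 −/− against 236 in Smad4 f/f, at least 1.62-fold lower, while another of its probe sets had 0.38. E2f4, which acts with p130 and p107 as a repressor in resting cells, read 286 in Smad4 −/− against 392 in Smad4 f/f, a log2 ratio of −0.46. E2f2 and E2f1, which act alike as activators, thus differed in direction by the probe set taken.

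**Figure D3:**
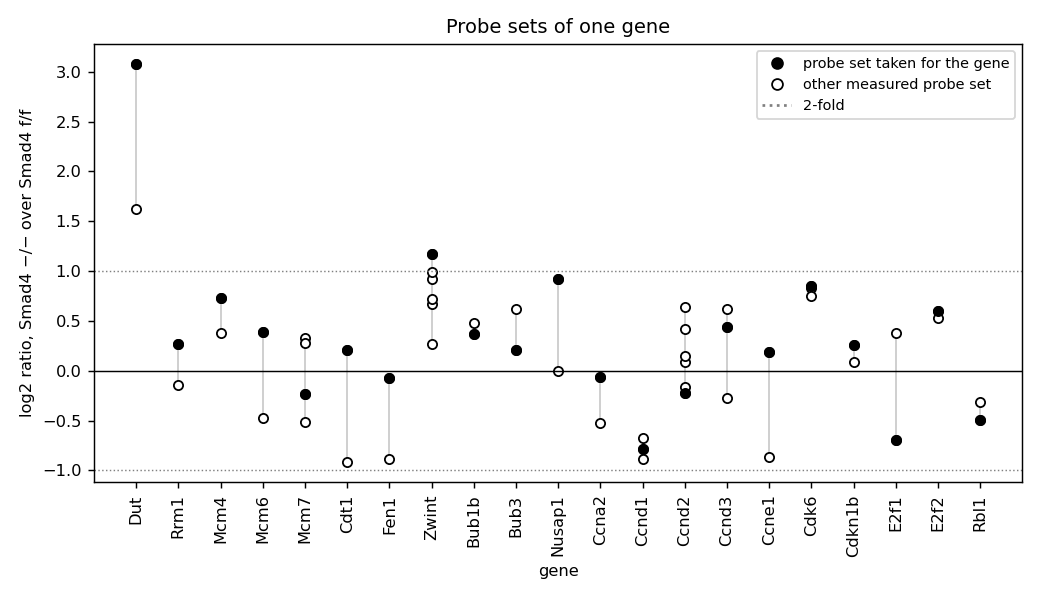
Floored log2 ratio (Smad4 −/− over Smad4 f/f) of each measured probe set for the 21 measured genes with at least 2 of them. Filled points are the probe set taken for the gene, open points the others, and dotted lines mark 2-fold. All probe sets lie above 0 for Dut, Zwint and Cdk6 and below 0 for Ccnd1, whereas those of Mcm7, Cdt1, Ccnd2, Ccne1 and E2f1 fall on both sides.

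Of these 21 genes, 12 had all measured probe sets in 1 direction, against 2011 of 4219 among all measured genes with at least 2. Counted by probe set, 82 of the 139 were measured, of which 5 passed 2-fold toward Smad4 −/− and 0 the other way. Over all 18099 measured probe sets with 1 gene symbol, 607 were that much higher and 633 that much lower. The median log2 ratio was 0.20 for the 82 and −0.02 for the 18099. The 5 include both probe sets of Dut, and 1 each of Zwint, Rb1 and Cdk4. At or above the floor were 69 of the 139 (49.6%) in Smad4 −/− and 70 (50.4%) in Smad4 f/f, against 38.5% of all probe sets in Smad4 −/− and 40.0% in Smad4 f/f. The number of these genes' probe sets at or above the floor was thus nearly equal in both genotypes. The share of all probe sets in Smad4 f/f follows from how the floor was set. By gene, 7 of the 45 measured were above the floor in Smad4 −/− only and 6 in Smad4 f/f only.

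Other genes of the same pathways, 219 in lists of nucleotide supply, replication, mitosis and cell cycle control, can be set beside the 45. Of them 158 were measured, 6 at least 2-fold higher in Smad4 −/− (3.80%) and 5 lower (3.16%), shares near those of all measured genes, and their median log2 ratio was −0.03. At 1.5-fold, 12.0% of the 158 were higher and 11.4% lower, and 46.2% had a log2 ratio above 0. The 158 thus did not share the higher shares of the 45. The lists were drawn up by function, with earlier results of these arrays known. In nucleotide supply, Nme1, a nucleoside diphosphate kinase that turns nucleoside diphosphates into triphosphates, was the only 1 of 18 past 2-fold. It read 12403 in Smad4 −/− and 4239.9 in Smad4 f/f, 2.93-fold higher. A second Nme1 probe set, open to cross-hybridisation, had a log2 ratio of 2.77 (36310 in Smad4 −/− against 5307 in Smad4 f/f). Its close relative Nme2 read 6114 in Smad4 −/− against 4708 in Smad4 f/f, a log2 ratio of 0.38, and signals of such similar genes may be shared between their probe sets.

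In the list of other replication genes, 0 of 38 passed 2-fold, against 7% of all measured genes in either direction. Of the 38, 13 (34.2%) had ratios above 0, against 48.3% of all, and the median was −0.12. Mitosis genes went both ways, with 4 of 58 at least 2-fold higher (6.90%) and 3 lower (5.17%) and a median of 0.16. All measured genes also went both ways, with 3.42% that much higher and 3.58% lower. Knl1, the kinetochore scaffold that Zwint binds, lay below the floor in Smad4 f/f and was at least 2.67-fold higher (387 in Smad4 −/− against 127 in Smad4 f/f). Anapc4, a subunit of the anaphase-promoting complex, read 505 in Smad4 −/− against 221 in Smad4 f/f, 2.29-fold higher. Gtse1 was at least 2.09-fold higher (304 in Smad4 −/− against 78.6 in Smad4 f/f), and Racgap1, a regulator of cytokinesis, read 299.7 in Smad4 −/− against 148 in Smad4 f/f, 2.03-fold higher. These 4 genes each rest on 1 probe set that passed 2-fold. A second measured probe set of Knl1 (150 in Smad4 −/− against 44.5 in Smad4 f/f) had a floored log2 ratio of only 0.05.

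On the lower side stood Kif2c, a microtubule-depolymerising kinesin of the centromere, at least 2.81-fold lower (98.6 in Smad4 −/− against 408 in Smad4 f/f), with its 3 measured probe sets in 1 direction. Cdca8, which codes for borealin of the chromosomal passenger complex, read 471 in Smad4 −/− and 990.02 in Smad4 f/f, 2.10-fold lower. However, 1 of its 3 measured probe sets had a bound of 0.40 on the log2 ratio, with Smad4 f/f below the floor. Anapc7, also of the anaphase-promoting complex, read 153 in Smad4 −/− against 319.7 in Smad4 f/f, 2.09-fold lower. Anapc4 and Anapc7, subunits of 1 complex, thus differed in direction.

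In the list of other cyclin, CDK and E2F genes, 1 of 44 was at least 2-fold higher (2.27%) and 2 were lower (4.55%). Among all measured genes these shares were 3.42% and 3.58%. The median of the 44 was −0.02. Cdkn1a, which codes for the CDK inhibitor p21, was at least 2.68-fold higher (389.5 in Smad4 −/− against 131 in Smad4 f/f). Foxm1, a transcription factor of mitotic genes, read 31.2 in Smad4 −/− and 321 in Smad4 f/f, at least 2.21-fold lower, and Pkmyt1, which holds Cdk1 inactive, read 85.6 in Smad4 −/− against 376 in Smad4 f/f, at least 2.59-fold lower. Each of the 3 was above the floor on 1 array only.

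**Figure D4:**
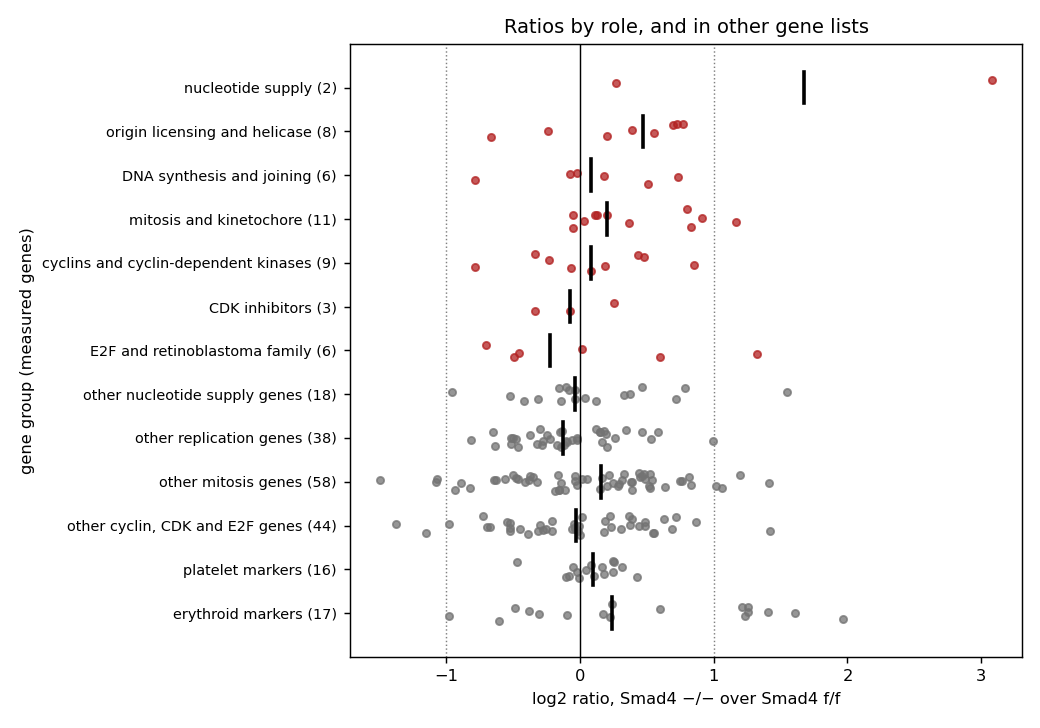
Log2 ratio (Smad4 −/− over Smad4 f/f) of each measured gene, with the number of genes in brackets and a bar at the median. Red points are the 45 genes by role, grey points the other lists, and dotted lines mark 2-fold. The licensing and helicase group has a median of 0.47, which depends on the floor, with 0 genes past 2-fold. Above the upper line lie 7 of 17 erythroid markers.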

How the data were processed

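Each array's deposited column holds log2 signals, which per the submitters' processing notes come from MAS5 (version and settings not given in the sources used here). Per the labels' protocols, labelling used a GeneChip 3′IVT Express Kit. Antilogs of the log2 values deposited by the authors had a mean of 500.007 on both arrays after 2% was trimmed at each end, so no further scaling was applied. Detection calls were not used here, and precision is limited by having only 2 arrays.

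Of 45101 probe sets, 64 are controls and 34945 have 1 gene symbol in the platform annotation, which can be out of date; 932 have several and 9160 none, and these were left out. No symbol changed through Entrez identifiers in RefSeq's GRCm38.p6 gene table. A gene took the probe set that was brightest on average over both arrays, and a probe set ending in _x_at, the type open to cross-hybridisation, only where it had no other. The floor was set at the 60th percentile of non-control signals, using whichever array gave more (log2 7.18), and lower signals were raised to it. It is a convention and no detection limit. All 59 genes are accounted for, and each measured gene has both array values. Of the other pathway genes, up to 4 per list and direction past 2-fold were named. The genes and lists were chosen with earlier results of these data known. No test was run. The choices tried otherwise were the scaling (median, quantile, loess), the floor (50th or 75th percentile, none), the probe sets per gene and the size rule. Steps were tested on simulated data. Python 3.11.15, pandas 2.3.3 and statsmodels 0.14.6 were used.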

Additional observations from a re-analysis of the deposited data

How the results depend on the processing

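The count of 3 genes at least 2-fold higher in Smad4 −/− held at 3 or 4 under every scaling, both other floors, the mean of probe sets, the omission of _s_at and _x_at probe sets, and the limit to genes whose probe sets go 1 way. Dut and Rb1 passed 2-fold in all of these. Zwint did so in all but the mean of its probe sets, where its log2 ratio was 0.79 and Cdk4 passed in its place through a probe set ending in _x_at. Where the count was 4, the added gene was Nusap1 with median centring and Mcm3 with a 50th percentile floor. The number of listed genes measured ran from 27 with a 75th percentile floor to 48 with the mean of probe sets. Under these alternatives 0 were at least 2-fold lower. Of all measured genes, 2.44% (75th percentile floor) to 5.10% (50th) were at least 2-fold higher. The share that much lower ran from 1.95% to 5.80% at the same floors. With no floor, 9 were higher and 2 lower, and all genes together gave 10.2% and 11.7%. The 6 added on the higher side were Bub1b, Cdk1, Cdk2, Cenpe, Lig1 and Mcm3, and the 2 lower ones Aurka and Fen1, each below the floor on 1 array. At 1.5-fold, 12 were higher and 4 lower, and at 3-fold 1 and 0, where all measured genes gave 0.514% higher and 0.415% lower. The median log2 ratio of 0.19 became 0.28 with median centring, which moved the median of all genes to 0.06, 0.26 with a 50th percentile floor, 0.27 without a floor, and 0.12 with the mean of probe sets. The 11 of 158 other pathway genes past 2-fold became 2 of 103 under a 75th percentile floor and 25 of 158 with none. All measured genes gave 2.44% higher and 1.95% lower under that floor, and 10.2% and 11.7% with none. For this count the alternatives were chosen after the data were seen. Of 340 values of single genes under the alternatives, 313 moved by no more than the yardstick of 0.48 and 27 by more, and no gene past 2-fold changed sign. Among the genes within 2-fold, 9 changed sign under 1 alternative each. Cdt1 turned to −0.35, Ccne1 to −0.34, Mcm6 to −0.04 and Ccnd2 to 0.15 with the mean of probe sets, and Mcm7 to 0.33 without _s_at and _x_at probe sets. Median centring turned Ccna2, Cdc20, Cdkn2c and Pcna, to between 0.02 and 0.08. The log2 ratio of Dut ran from 2.35 to 3.17. The low signal of many of these genes limits their ratios, since 13 of 45 were above the floor on 1 array only. No paired analysis was possible because each genotype has 1 array.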
